A study of Mus musculus with 12 samples.

Results

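The genes described here are 10 genes of glucose use and lactate transport: the monocarboxylate carriers Slc16a1 and Slc16a3, the glucose carrier Slc2a1, the hexokinases Hk1 and Hk2, pyruvate kinase Pkm, the lactate dehydrogenase subunits Ldha and Ldhb, the pyruvate dehydrogenase kinase Pdk4, and Mlxipl, which encodes the glucose-responsive transcription factor ChREBP. They were chosen by name, with earlier results of these data known, as the rows of the count table with these symbols. They are 10 of 55376 symbols. Of the 10, 10 passed the filter on low counts (at least 1 CPM, the count scaled to library size, in at least 4 of the 12 samples), which left 17716 genes for testing.

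RNA-Seq was made from oligodendrocytes that were sorted as O1+ and CD45- from brains of C57BL/6 mice at postnatal day 40. The 12 samples fell into 3 genotypes of 4 samples each, and each sample was pooled from 2 brains. The first genotype was wild-type (WT). The second was Cnp-Cre:Jab1flfl, written here Cnp-Cre Jab1fl/fl, in which Cre driven from Cnp, a gene of the oligodendrocyte lineage, deletes Jab1 (gene symbol Cops5), the catalytic subunit of the COP9 signalosome. The third was p21-/- Cnp-Cre:Jab1flfl, called double mutants, which carry the same deletion and lack the cell cycle inhibitor p21 (gene symbol Cdkn1a) in all cells. No group with loss of p21 alone was among the samples, so the double mutants were compared with WT and with Cnp-Cre Jab1fl/fl. Pools are separate samples by their labels, and whether any of them share litters or sort days is not given, so p-values measure the spread between these samples.

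Oligodendrocytes take up glucose through carriers of the SLC2A family, trap it with hexokinase and break it down to pyruvate. Pyruvate either enters the mitochondria or is turned into lactate by lactate dehydrogenase, and lactate leaves or enters the cell through monocarboxylate carriers. Slc16a1 (MCT1) in oligodendrocytes is known for supplying lactate to axons. In many cell types Hk2, Ldha, Slc16a3 and Slc2a1 are known targets of hypoxia-inducible factors, and Mlxipl encodes a factor that senses glucose metabolites and binds pairs of E-box motifs.

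Total counts per sample lay between 61485556 and 153495112, so that 1 CPM stood for 61.5 counts in the smallest library. Whole-gene counts of Cops5 were 103 ± 39.7 CPM (SD, n = 4) in WT, 66.9 ± 18.0 CPM in Cnp-Cre Jab1fl/fl and 58.6 ± 21.5 CPM in double mutants, and neither difference from WT passed the test (edgeR adjusted p = 0.349 and 0.424). Cdkn1a lay between 15.98 and 85.3 CPM in WT, between 379 and 637 CPM in Cnp-Cre Jab1fl/fl and between 64.7 and 103 CPM in double mutants. Counts over a whole gene do not separate deleted from remaining exons, so they check the labels only in part. Markers of mature oligodendrocytes (11 genes, none at 0 in any group) summed to between 40982 and 99130 CPM in WT, between 9059 and 34699 CPM in Cnp-Cre Jab1fl/fl and between 16554 and 52479 CPM in double mutants. In Cnp-Cre Jab1fl/fl, 7 of these 11 genes were lower than in WT by edgeR, and 16 of 16 microglial markers, 7 of 11 endothelial markers, 4 of 7 mural markers and 2 of 6 choroid plexus markers were higher. For double mutants against WT the same lists gave 0 called genes by edgeR, but at an unadjusted p under 0.05 there were 16 of 16 microglial markers higher (median log2 fold change 4.67, beside 3.85 in Cnp-Cre Jab1fl/fl), 10 of 11 endothelial, 3 of 7 mural and 4 of 6 choroid plexus markers higher, and 7 of 11 oligodendrocyte markers lower. Astrocyte markers (8 genes) gave 0 called genes in Cnp-Cre Jab1fl/fl by edgeR, with 1 higher and 2 lower at an unadjusted p under 0.05, neuron markers (10 genes) gave 0, with 3 higher at that level, and 1 of 6 oligodendrocyte progenitor markers was higher there. In samples of many cells, fewer cells of a type and less RNA per cell cannot be told apart.

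The promoters of the 2 members that rose in Cnp-Cre Jab1fl/fl are shown because the results turn on these genes. RefSeq gives 2 starts for Mlxipl and 1 for Hk2, and the 250 bases before each start are printed 5′ to 3′ on the strand of the gene (build GRCm38.p6). The Mlxipl windows are chr5:135089640-135089889 and chr5:135106641-135106890 on the plus strand, and the Hk2 window is chr6:82774455-82774704 on the minus strand. Capitals mark ACGTG read on either strand, the core shared by the E-box CACGTG and by the binding motif of hypoxia-inducible factors, and overlapping matches are printed as 1 run.
Mlxipl, upstream start: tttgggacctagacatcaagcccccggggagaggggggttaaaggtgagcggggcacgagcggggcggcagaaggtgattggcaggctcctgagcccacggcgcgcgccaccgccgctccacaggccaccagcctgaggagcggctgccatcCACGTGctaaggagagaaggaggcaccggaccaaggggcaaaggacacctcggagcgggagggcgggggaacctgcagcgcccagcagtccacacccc
Mlxipl, downstream start: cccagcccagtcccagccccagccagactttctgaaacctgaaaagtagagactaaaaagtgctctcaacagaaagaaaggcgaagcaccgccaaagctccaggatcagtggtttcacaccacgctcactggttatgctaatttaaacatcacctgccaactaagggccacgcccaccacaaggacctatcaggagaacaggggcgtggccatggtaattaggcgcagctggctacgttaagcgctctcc
Hk2: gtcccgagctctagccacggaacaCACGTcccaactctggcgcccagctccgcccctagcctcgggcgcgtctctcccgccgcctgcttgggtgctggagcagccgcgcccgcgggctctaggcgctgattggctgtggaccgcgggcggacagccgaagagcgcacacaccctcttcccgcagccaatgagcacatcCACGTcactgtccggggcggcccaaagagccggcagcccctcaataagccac
The upstream Mlxipl window held this E-box once, 98 bases before the start, and the downstream window held 0 matches of ACGTG on either strand. No other form of the binding motif of hypoxia-inducible factors was searched for. The Hk2 window held the core on the strand opposite to the gene, at 226 and at 52 bases before the start, and held no such E-box. The core was present on either strand in 16.6% of all 32851 promoter windows of this length and the E-box in 6.02%. Among the 14 windows of the 10 genes, 7 held the core and 3 held the E-box (1 window each of Slc16a1, Ldha and Mlxipl). For these windows of Slc16a1 and Ldha, the first bases after the start were not found in a GENCODE transcript of the gene. For that of Mlxipl they were found. The counts are per gene and do not tell the 2 starts of Mlxipl apart.

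Between Cnp-Cre Jab1fl/fl and WT, 2 of the 10 genes were higher by edgeR, Hk2 and Mlxipl, and 0 were lower, where 5.19% of all genes tested were higher and 2.46% were lower. At an unadjusted p under 0.05 there were 3 higher (Hk2, Mlxipl and Ldha; 13.2% of all genes) and 1 lower (Pdk4; 9.30% of all genes). DESeq2 called 3, the same genes Hk2, Mlxipl and Ldha, against 15.2% of all genes in either direction. The median log2 fold change of the 10 genes was 0.04 and that of all genes tested was 0.02. For double mutants against WT, edgeR called 0 of the 10 genes, where 0.175% of all genes were higher and 0.0169% were lower. At an unadjusted p under 0.05, 1 was higher in that comparison (Hk2; 7.82% of all genes) and 1 was lower (Pdk4; 4.57% of all genes), and DESeq2 called 1, Hk2 (4.87% of all genes in either direction). Between double mutants and Cnp-Cre Jab1fl/fl, edgeR called 0 members and 0.00% of all genes in either direction. There, at an unadjusted p under 0.05, 1 member was lower (Mlxipl; 3.25% of all genes) and 0 were higher (1.75% of all genes), and DESeq2 called 1, Mlxipl (0.491% of all genes). The comparisons share their groups, so they are not independent of one another. The 10 genes were chosen with earlier results known, so their counts beside the shares of all genes are a description only.

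**Figure D1:**
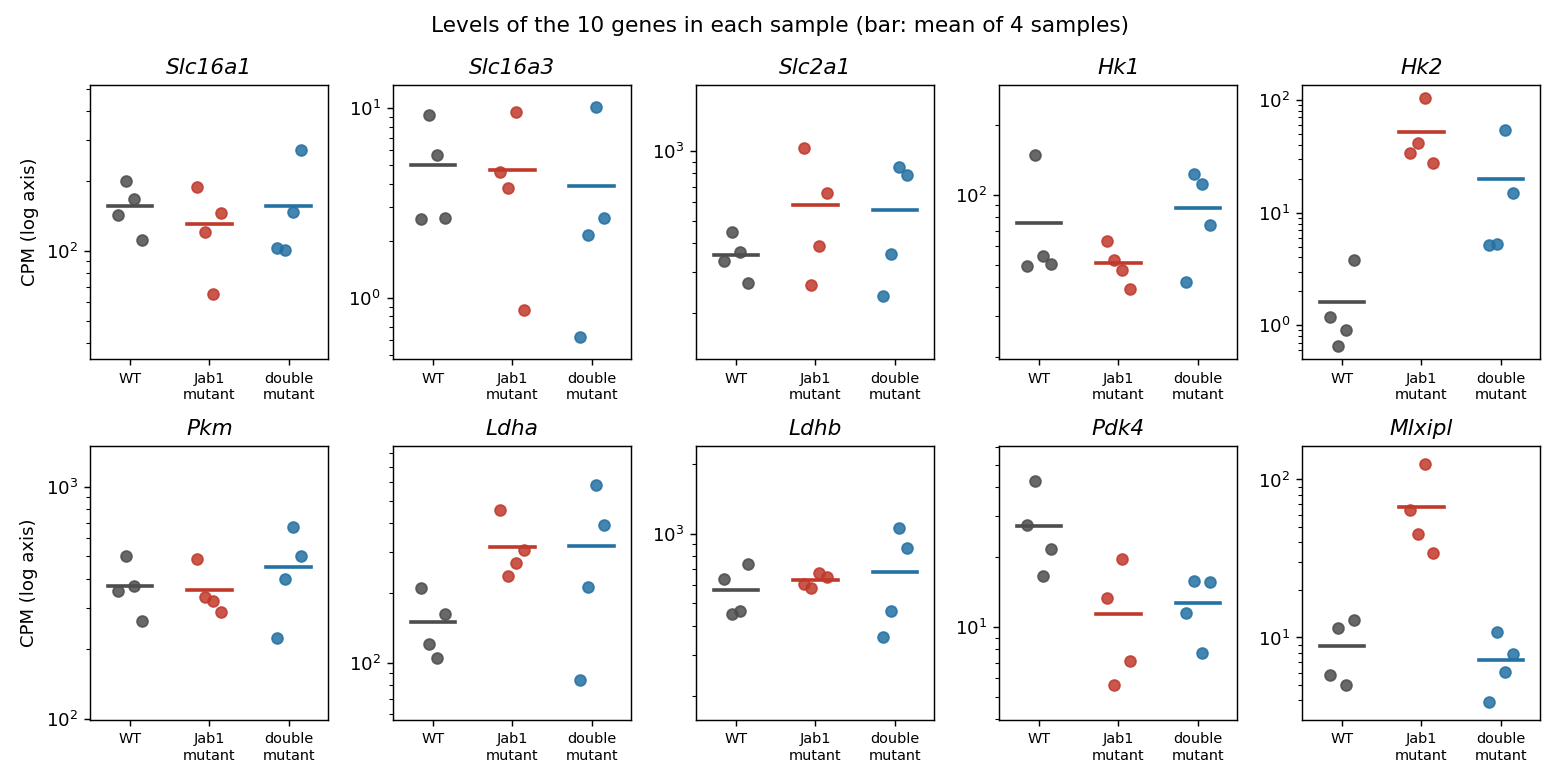
Level of each of the 10 genes in CPM on a log axis, with 1 point per sample and a bar at the group mean, for WT, Cnp-Cre Jab1fl/fl (Jab1 mutant on the axis) and double mutants, 4 samples each. Hk2 and Mlxipl lie above the WT points in all 4 Cnp-Cre Jab1fl/fl samples, and Mlxipl of double mutants overlaps the WT points.

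Slc16a1, the carrier of lactate, pyruvate and ketone bodies (MCT1; chr3:104638668-104658462, plus strand), passed the test in none of the 3 comparisons. WT samples had 143, 200, 168 and 111 CPM, Cnp-Cre Jab1fl/fl had 188, 121, 65.3 and 146 CPM, and double mutants had 102, 100, 147 and 271 CPM. The groups overlapped throughout. Its log2 fold change was -0.26 ± 0.35 (SE) in Cnp-Cre Jab1fl/fl (edgeR adjusted p = 0.726) and -0.01 ± 0.37 in double mutants (edgeR adjusted p = 0.993), both against WT. These tests do not show that its levels were equal. The highest samples of Cnp-Cre Jab1fl/fl (188 and 146 CPM) had endothelial marker sums of 5866 and 4621 CPM, the highest of their group. Those of the double mutants (147 and 271 CPM) had 3406 and 5564 CPM, also the highest of their group. WT replicate 3, at 200 CPM, had 669 CPM. The part of endothelial cells was not tested. In the annotation Slc16a1 overlaps the genes Gm43581 and Gm43585 on its own strand.

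Slc16a3, the carrier known for lactate export from glycolytic cells (MCT4; chr11:120948480-120960868, plus strand), was low in every genotype. It had 2.62, 9.22, 5.64 and 2.64 CPM in WT, 4.59, 3.78, 9.58 and 0.861 CPM in Cnp-Cre Jab1fl/fl, and 0.619, 2.15, 10.2 and 2.65 CPM in double mutants. One sample of each genotype stood near 10 CPM, and the groups overlapped. The log2 fold changes against WT were -0.10 ± 0.80 (SE; edgeR adjusted p = 0.962) and -0.37 ± 0.87 (edgeR adjusted p = 0.905). With these errors, changes of more than 1 log2 unit in either direction were not excluded. The log2 ratio of Slc16a3 to Slc16a1 was -4.81 ± 0.43 (SD, n = 4) in WT, -4.68 ± 1.52 in Cnp-Cre Jab1fl/fl and -5.24 ± 1.14 in double mutants (two-sided exact permutation p between 0.486 and 0.886 in the 3 comparisons).

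Slc2a1, the glucose carrier GLUT1 (chr4:119108711-119137983, plus strand), spread widely among the mutants. WT samples had 335, 446, 366 and 271 CPM, Cnp-Cre Jab1fl/fl had 1031, 264, 388 and 661 CPM, and double mutants had 236, 360, 854 and 784 CPM. In each mutant genotype 2 samples lay above every WT sample and 2 lay among or below them. The log2 fold changes against WT were 0.73 ± 0.41 (SE; edgeR adjusted p = 0.332) and 0.65 ± 0.43 (edgeR adjusted p = 0.571). Slc2a1 is also known as the main glucose carrier of brain endothelium, and the 4 samples with the highest Slc2a1 were those with the 4 highest sums of the 11 endothelial markers. Those sums were 5866 and 4621 CPM in replicates 1 and 4 of Cnp-Cre Jab1fl/fl and 3406 and 5564 CPM in replicates 3 and 5 of the double mutants, against 371 to 783 CPM in WT. Their part in the result was not tested.

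Hexokinases phosphorylate glucose and so keep it in the cell. Hk1 (chr10:62268855-62379908, minus strand) had 49.2, 149, 54.2 and 50.4 CPM in WT, 63.5, 52.4, 47.5 and 39.1 CPM in Cnp-Cre Jab1fl/fl, and 42.2, 123, 112 and 73.9 CPM in double mutants. WT replicate 3 stood apart from its group. The log2 fold change in Cnp-Cre Jab1fl/fl was -0.58 ± 0.39 (SE; edgeR adjusted p = 0.435) with that sample and -0.04 without it (edgeR adjusted p = 0.961). In double mutants it was 0.20 ± 0.46 against WT (edgeR adjusted p = 0.898) and 0.79 ± 0.36 against Cnp-Cre Jab1fl/fl (edgeR adjusted p = 0.968). Hk1 overlaps the antisense gene Hk1os.

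Hk2, the hexokinase that most adult brain cells express little of (chr6:82725025-82774454, minus strand), rose in Cnp-Cre Jab1fl/fl. WT samples had 1.18, 0.653, 0.900 and 3.77 CPM, Cnp-Cre Jab1fl/fl had 33.6, 41.5, 104 and 27.5 CPM, and double mutants had 5.18, 5.22, 54.3 and 14.9 CPM. All samples of both mutant genotypes lay above all WT samples, and the double mutants overlapped Cnp-Cre Jab1fl/fl only through replicate 3. The log2 fold change in Cnp-Cre Jab1fl/fl was 4.995 ± 0.71 (SE; edgeR adjusted p = 0.00331), a fold of 31.9, and it passed the threshold under each of 13 alternative settings. For double mutants against WT it was 3.61 ± 0.94 (edgeR adjusted p = 0.161; DESeq2 adjusted p = 8.99e-04) and 2.37 without replicate 3 of the double mutants. Between double mutants and Cnp-Cre Jab1fl/fl it was -1.38 ± 0.77 (edgeR adjusted p = 0.996), -2.59 without that sample and -0.78 without replicate 3 of Cnp-Cre Jab1fl/fl. Hk2 overlaps Gm17034, which lies on the other strand.

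Hk2 and the markers of microglia were both lowest in the 4 WT samples. The 16 microglial markers summed to between 107 and 326 CPM in WT, between 1217 and 3191 CPM in Cnp-Cre Jab1fl/fl, and to 459, 1030, 22042 and 2450 CPM in double mutants 1, 2, 3 and 5. Double mutant replicate 3, with the highest microglial sum, had the highest Hk2 of its group. Its 54.3 CPM of Hk2 was below the 104 CPM of replicate 3 of Cnp-Cre Jab1fl/fl. Within Cnp-Cre Jab1fl/fl the order differed. Replicate 3, with the highest Hk2, had a microglial sum of 1983 CPM, below the 3084 and 3191 CPM of replicates 1 and 4. Replicate 4, with the highest sum, had the lowest Hk2 there, 27.5 CPM. Replicate 2, with the lowest sum, 1217 CPM, had the next highest Hk2, 41.5 CPM. The leukocyte gene Ptprc, which encodes the CD45 used to exclude cells in the sort, lay between 0 and 1.53 CPM in WT, between 31.7 and 107 CPM in Cnp-Cre Jab1fl/fl and between 3.11 and 101 CPM in double mutants. Replicate 3 of Cnp-Cre Jab1fl/fl, at 107 CPM, and replicate 3 of the double mutants, at 101 CPM, had the highest Ptprc and the highest Hk2 of their groups. These samples also had the highest sums of choroid plexus markers of their groups, 24320 and 23651 CPM. In WT, replicate 6 was highest in Hk2, in Ptprc and in that sum (4023 CPM). Replicate 2 of Cnp-Cre Jab1fl/fl, next in Hk2 in its group, was lowest there in Ptprc (31.7 CPM) and in that sum (6407 CPM). The part of these cells in the Hk2 result was not tested.

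**Figure D2:**
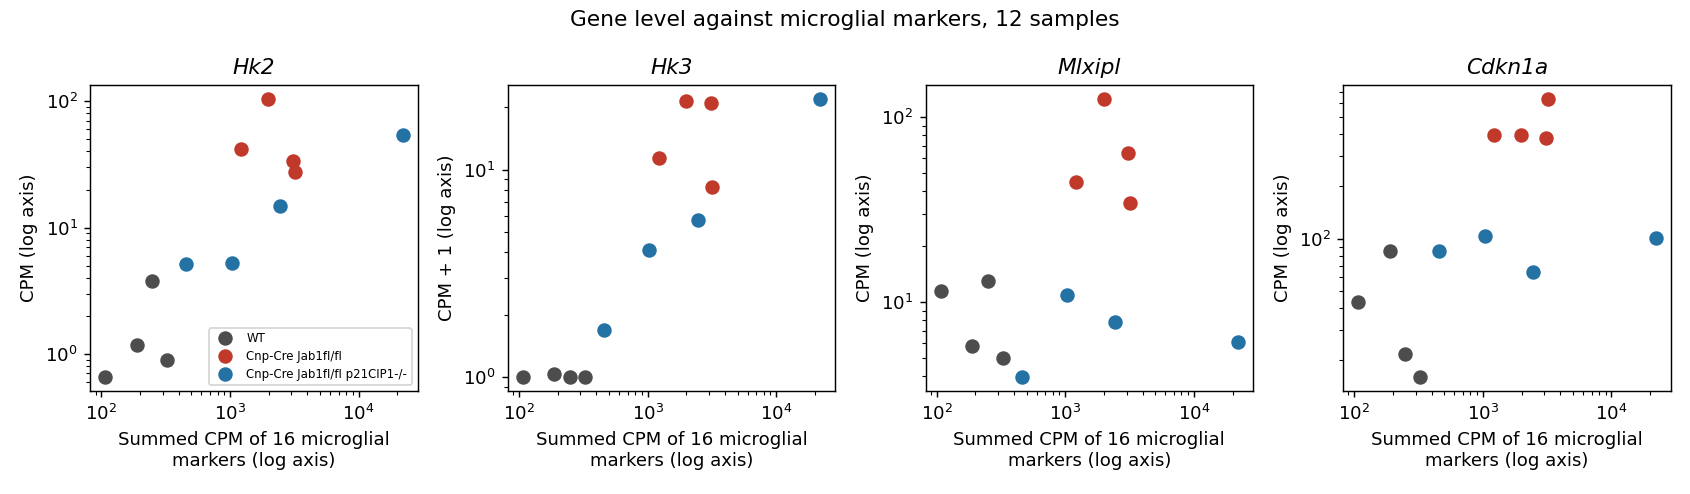
Levels of Hk2, Hk3, Mlxipl and Cdkn1a (CPM, with 1 added for Hk3, log axes) against the summed CPM of 16 microglial markers (log axis), with 1 point per sample coloured by genotype. The 4 WT samples are lowest in the sum, in Hk2 and in Hk3, and Mlxipl in the double mutant with a microglial sum of 22042 CPM is 6.08 CPM.

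The log2 ratio of Hk2 to Hk1, computed from CPM with 1 added to each, was -4.83 ± 1.27 (SD, n = 4) in WT, -0.15 ± 0.88 in Cnp-Cre Jab1fl/fl and -2.60 ± 1.37 in double mutants. Cnp-Cre Jab1fl/fl lay apart from WT, by 4.68, and from double mutants, by 2.45 (each two-sided exact permutation p = 0.0286, the smallest that 4 samples against 4 allow). Adjusted over the 9 ratio tests both became 0.0857 (exact permutation), which missed 0.05.

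Pkm encodes muscle-type pyruvate kinase, which makes pyruvate (chr9:59656368-59679375, plus strand). It had 355, 504, 372 and 264 CPM in WT, 490, 334, 322 and 287 CPM in Cnp-Cre Jab1fl/fl, and 222, 402, 669 and 504 CPM in double mutants. The groups overlapped, with log2 fold changes against WT of -0.06 ± 0.31 (SE; edgeR adjusted p = 0.937) and 0.26 ± 0.38 (edgeR adjusted p = 0.823). The splice forms of Pkm are not separated in these counts.

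Ldha and Ldhb encode the subunits of lactate dehydrogenase, which interconverts pyruvate and lactate. Ldha (chr7:46841475-46855627, plus strand) had 209, 120, 105 and 162 CPM in WT, 455, 237, 269 and 306 CPM in Cnp-Cre Jab1fl/fl, and 84.2, 212, 582 and 391 CPM in double mutants. Every Cnp-Cre Jab1fl/fl sample was above every WT sample, while the double mutants ran from below the WT range to above that of Cnp-Cre Jab1fl/fl. The 4 samples with the highest Ldha were, as for Slc2a1, those with the 4 highest endothelial sums, and the part of those cells was not tested. The log2 fold change in Cnp-Cre Jab1fl/fl was 1.09 ± 0.33 (SE), which missed the threshold by edgeR (adjusted p = 0.0702) and passed it by DESeq2 (adjusted p = 0.0104) and by edgeR without replicate 2 of Cnp-Cre Jab1fl/fl (adjusted p = 0.0495). Double mutants against WT gave 1.08 ± 0.52 (edgeR adjusted p = 0.434), and against Cnp-Cre Jab1fl/fl they gave 0.00 ± 0.51.

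Ldhb (chr6:142490249-142507957, minus strand) had 637, 449, 464 and 737 CPM in WT, 604, 585, 676 and 647 CPM in Cnp-Cre Jab1fl/fl, and 356, 464, 1056 and 864 CPM in double mutants. These ranges overlapped, and the log2 fold changes against WT were 0.14 ± 0.28 (SE; edgeR adjusted p = 0.833) and 0.25 ± 0.40 (edgeR adjusted p = 0.838). The log2 ratio of Ldha to Ldhb was -1.95 ± 0.27 (SD, n = 4) in WT, -1.03 ± 0.43 in Cnp-Cre Jab1fl/fl and -1.30 ± 0.53 in double mutants. Cnp-Cre Jab1fl/fl and WT did not overlap in this ratio (difference 0.92, two-sided exact permutation p = 0.0286 and 0.0857 adjusted over 9). Double mutants differed from WT by 0.65 (exact permutation p = 0.0857, adjusted 0.154).

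**Figure D3:**
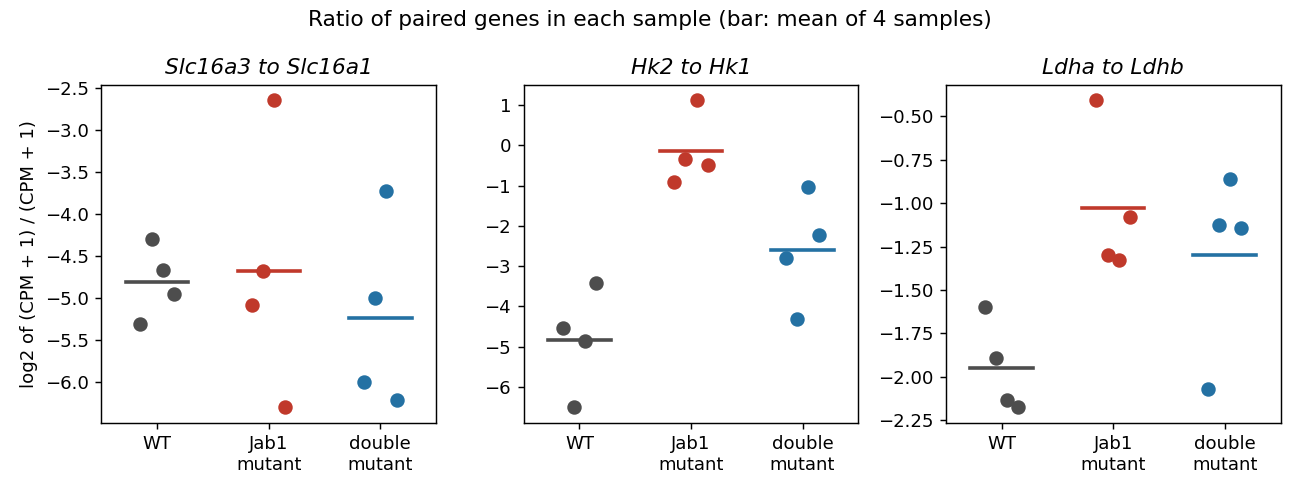
Log2 ratios of Slc16a3 to Slc16a1, Hk2 to Hk1 and Ldha to Ldhb, from CPM with 1 added, with 1 point per sample and a bar at the mean of each group (Jab1 mutant is Cnp-Cre Jab1fl/fl). The 4 Cnp-Cre Jab1fl/fl samples lie above the 4 WT samples in the ratios of Hk2 to Hk1 and of Ldha to Ldhb, and the groups overlap in the ratio of the carriers.

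Pdk4, a kinase that inhibits pyruvate dehydrogenase and so limits the entry of pyruvate into the citric acid cycle (chr6:5483351-5496309, minus strand), had lower means in both mutants. It had 27.6, 42.8, 16.7 and 21.6 CPM in WT, 13.3, 5.63, 19.6 and 7.11 CPM in Cnp-Cre Jab1fl/fl, and 11.4, 15.8, 7.71 and 15.6 CPM in double mutants. The double mutants lay below every WT sample, and 1 Cnp-Cre Jab1fl/fl sample lay within the WT range. The log2 fold changes against WT were -1.25 ± 0.48 (SE; edgeR unadjusted p = 0.0246, adjusted p = 0.149) and -1.11 ± 0.41 (edgeR unadjusted p = 0.0200, adjusted p = 0.298), and neither passed the test.

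Mlxipl (chr5:135089890-135138382, plus strand) rose in Cnp-Cre Jab1fl/fl and overlapped WT in double mutants. WT samples had 5.80, 11.4, 5.01 and 12.9 CPM, Cnp-Cre Jab1fl/fl had 63.7, 44.9, 126 and 34.2 CPM, and double mutants had 3.92, 10.9, 6.08 and 7.85 CPM. All 4 Cnp-Cre Jab1fl/fl samples lay above the other 8, and the double mutants overlapped WT. The log2 fold change in Cnp-Cre Jab1fl/fl against WT was 2.93 ± 0.50 (SE; edgeR adjusted p = 0.00682), a fold of 7.63. Of the alternative settings, the fit of all 12 samples with a replicate block ended this call (3.34, edgeR adjusted p = 0.0561). Double mutants against WT gave -0.31 ± 0.54 (edgeR adjusted p = 0.861), which does not show that the levels were equal. Mlxipl overlaps Gm43500, which lies on the other strand.

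Between double mutants and Cnp-Cre Jab1fl/fl the log2 fold change of Mlxipl was -3.22 ± 0.51 (SE). It missed the threshold by edgeR (unadjusted p = 6.3e-05, adjusted p = 0.186), a comparison in which edgeR called 0 genes, and passed it by DESeq2 (adjusted p = 2.91e-07). Over the 13 alternative settings the value ran from -3.50 to -2.73 and the adjusted p from 2.91e-07 to 0.658. Markers of other cell types stood beside these levels as follows. The 6 oligodendrocyte progenitor markers summed to between 34.7 and 85.4 CPM in WT, between 65.7 and 153.3 CPM in Cnp-Cre Jab1fl/fl and between 32.3 and 85.9 CPM in double mutants, with a median log2 fold change of 1.55 in Cnp-Cre Jab1fl/fl against WT and -0.91 in double mutants against Cnp-Cre Jab1fl/fl, where 0 of 6 were above 0. Medians of these sums, of the microglial, endothelial and choroid plexus sums and of Mlxipl were all highest in Cnp-Cre Jab1fl/fl. Those of the mural and neuron sums were highest in double mutants (1075 and 339 CPM). Microglial, endothelial and choroid plexus medians were 1740, 2117 and 9205 CPM in double mutants, against 219, 667 and 2138 CPM in WT. The medians of Mlxipl were 6.96 CPM in double mutants and 8.62 CPM in WT. Replicate 3 of Cnp-Cre Jab1fl/fl, with the highest Mlxipl, had the lowest progenitor sum of its group, at 65.7 CPM. The 6 choroid plexus markers summed to between 288 and 4023 CPM in WT, between 6407 and 24320 CPM in Cnp-Cre Jab1fl/fl and between 5354 and 23651 CPM in double mutants. Replicate 3 of Cnp-Cre Jab1fl/fl had the highest choroid plexus sum and the highest Mlxipl of its group. Replicate 4 of that genotype had the next highest sum, 15825 CPM, and the lowest Mlxipl, 34.2 CPM. Replicate 3 of the double mutants, with the sum of 23651 CPM, had 6.08 CPM of Mlxipl. Endothelial sums lay between 840 and 5866 CPM in Cnp-Cre Jab1fl/fl and between 722 and 5564 CPM in double mutants. The part of these cells in the Mlxipl result was not tested.

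**Figure D4:**
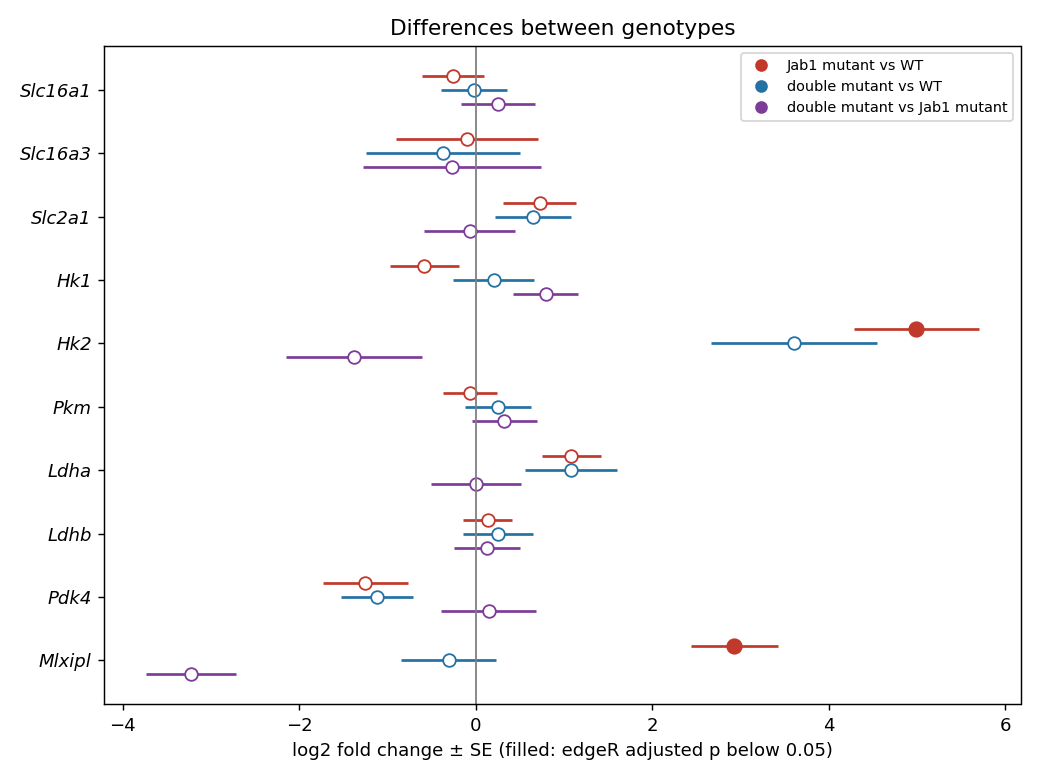
Log2 fold changes of the 10 genes with SE bars in the 3 comparisons, Cnp-Cre Jab1fl/fl (Jab1 mutant in the legend) against WT, double mutants against WT and double mutants against Cnp-Cre Jab1fl/fl, with filled points where edgeR's adjusted p is below 0.05. The filled points are Hk2 at 4.995 and Mlxipl at 2.93 in Cnp-Cre Jab1fl/fl against WT.

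Counted over the members, samples did not overlap between Cnp-Cre Jab1fl/fl and WT for 3 of 10 genes (Hk2, Mlxipl and Ldha, all higher), where 17.1% of all genes did not overlap. For double mutants against WT it was 2 of 10 (Hk2 higher, Pdk4 lower; 8.10% of all genes), and for double mutants against Cnp-Cre Jab1fl/fl it was 1 of 10 (Mlxipl lower; 3.22% of all genes). Since the genes were chosen with earlier results known, these counts too are a description only.

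Levels were compared between genes as TPM, a unit that divides counts by exonic length. In WT the order by mean TPM was Ldhb (1039 ± 255, SD, n = 4), Pkm (349 ± 141), Slc2a1 (262 ± 87.8), Ldha (187 ± 54.8), Slc16a1 (84.95 ± 30.7), Hk1 (39.6 ± 32.3), Pdk4 (19.4 ± 11.03), Mlxipl (6.00 ± 3.25), Slc16a3 (2.82 ± 2.16) and Hk2 (0.684 ± 0.618). Neighbours in this order overlapped in their ranges except Ldhb and Pkm, and Pdk4 and Mlxipl. In Cnp-Cre Jab1fl/fl, Mlxipl (40.0 ± 28.8 TPM) and Hk2 (20.3 ± 16.3 TPM) stood on either side of Hk1 (21.6 ± 3.51 TPM), with overlapping ranges, and Pdk4 (6.92 ± 4.46 TPM) came below them. In double mutants Hk2 (6.69 ± 7.05 TPM) and Mlxipl (4.32 ± 2.35 TPM) were below Hk1 (38.6 ± 19.2 TPM) and overlapped Pdk4 (7.90 ± 3.22 TPM). Ldhb had the highest mean of the 10 in all 3 genotypes, and its range did not overlap that of the next gene in any of them.

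The other genes of the pathway were also chosen with earlier results of these data known. They were taken as 6 lists with 74 genes, of which 70 were tested (the other 4 fell under the filter). In Cnp-Cre Jab1fl/fl against WT, 2 were higher by edgeR (Hk3 and Txnip) and 3 were lower (Pfkfb2, Pcx and Pdk3), which compares with 5.19% and 2.46% of all genes. The median log2 fold change of the 70 was -0.27 and 25 were above 0, beside a median of 0.02 for all genes. In double mutants against WT, edgeR called 0 of 70, where it called 0.175% of all genes as higher and 0.0169% as lower. At an unadjusted p under 0.05, 3 were higher and 4 lower (7.82% and 4.57% of all genes), and the median was -0.05. DESeq2 called 3 of the 70 as higher there, Bsg, Hk3 and Txnip, beside 663 of all 17716 genes. Between double mutants and Cnp-Cre Jab1fl/fl, edgeR called 0 of 70 and 0.00% of all genes. At an unadjusted p under 0.05, 0 were lower (3.25% of all genes) and 1 was higher (1.75% of all genes). This was the transketolase gene Tkt (log2 fold change 0.96, edgeR adjusted p = 0.903). The median there was 0.23, with 53 of 70 above 0, beside a median of 0.02 for all genes.

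Among the 11 other carriers and their partners, 0 passed by edgeR in either direction. The largest difference by unadjusted p was in Bsg, the chaperone that brings MCT1 and MCT4 to the membrane, which had 1035, 735, 461 and 757 CPM in WT, 5054, 955, 1512 and 2862 CPM in Cnp-Cre Jab1fl/fl, and 821, 838, 4005 and 6378 CPM in double mutants. The 4 highest samples of Bsg were the same as those of Slc2a1 and of the endothelial sum, whose part was not tested. Its log2 fold change was 1.80 ± 0.51 (SE; edgeR adjusted p = 0.0538) in Cnp-Cre Jab1fl/fl and 2.01 in double mutants (edgeR adjusted p = 0.245). DESeq2 called Bsg as higher in both mutant genotypes, and edgeR called it in Cnp-Cre Jab1fl/fl without replicate 2 of that genotype. For the monocarboxylate carrier Slc16a8 it was 2.46 in Cnp-Cre Jab1fl/fl (edgeR adjusted p = 0.213).

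Among the 19 other glycolytic enzymes tested, 1 rose and 1 fell in Cnp-Cre Jab1fl/fl by edgeR (5.19% and 2.46% of all genes). Hk3, a hexokinase known from blood and myeloid cells, had 4, 0, 0 and 0 counts in WT, 1565, 1250, 1397 and 542 counts in Cnp-Cre Jab1fl/fl, and 65, 390, 2153 and 449 counts in double mutants (edgeR adjusted p = 0.00186 in Cnp-Cre Jab1fl/fl). A fitted fold for Hk3 would rest on 4 WT counts and is not given. As for Hk2, the highest double mutant was replicate 3, which had the highest microglial sum. Pfkfb2, which sets the level of the activator of phosphofructokinase, had 30.6, 44.4, 19.6 and 22.7 CPM in WT and 4.34, 12.6, 9.63 and 5.70 CPM in Cnp-Cre Jab1fl/fl (log2 fold change -1.86 ± 0.46, SE; edgeR adjusted p = 0.0321). The phosphofructokinase gene Pfkm had a log2 fold change of -1.02 (edgeR adjusted p = 0.0916) and was called as lower by DESeq2.

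Of 14 genes for the entry of pyruvate into mitochondria, 2 fell in Cnp-Cre Jab1fl/fl and 0 rose by edgeR (2.46% and 5.19% of all genes). Pcx, pyruvate carboxylase, had 149, 388, 162 and 120 CPM in WT and 75.0, 67.0, 49.7 and 49.4 CPM in Cnp-Cre Jab1fl/fl (log2 fold change -1.76 ± 0.40, SE; edgeR adjusted p = 0.0226). Pdk3, a kinase of pyruvate dehydrogenase like Pdk4, had 50.0, 40.7, 118 and 45.9 CPM in WT and 18.3, 34.3, 13.9 and 18.5 CPM in Cnp-Cre Jab1fl/fl (log2 fold change -1.58 ± 0.43, SE; edgeR adjusted p = 0.0456). All Cnp-Cre Jab1fl/fl samples lay below all WT samples for Pcx, Pdk3 and Pfkfb2. Pdk3 was highest in WT replicate 5 and Cnp-Cre Jab1fl/fl replicate 2, with the highest oligodendrocyte sums of their groups (99130 and 34699 CPM). Replicate 1 of Cnp-Cre Jab1fl/fl, at 33020 CPM, had less Pdk3 than replicate 4, at 18801 CPM. Pcx was highest in WT replicate 3, with the highest astrocyte sum of WT (10781 CPM). It was next in WT replicate 5, with the lowest (3987 CPM). The part of these cells was not tested. In double mutants the log2 fold changes against WT were -1.06 for Pcx and -0.91 for Pdk3 (edgeR adjusted p = 0.340 for each). The 3 calls of lower genes depended on single samples: 0 remained without replicate 3 or without replicate 4 of Cnp-Cre Jab1fl/fl, and 1, Pcx, remained without replicate 1, 3 or 6 of WT or replicate 1 of Cnp-Cre Jab1fl/fl. Dlat, a subunit of the pyruvate dehydrogenase complex, had a log2 fold change of -0.87 (edgeR adjusted p = 0.180).

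Of 7 genes of the pentose phosphate pathway and 8 of glycogen metabolism, 0 passed by edgeR in any comparison. The values in Cnp-Cre Jab1fl/fl were -1.20 for Tkt (edgeR adjusted p = 0.0785), 1.83 for Rpia, ribose 5-phosphate isomerase (edgeR adjusted p = 0.114), and -1.31 for Pygb, brain glycogen phosphorylase (edgeR adjusted p = 0.142). DESeq2 called Rpia as higher and Tkt and Pygb as lower there. Of 11 regulators, Txnip, a known target of ChREBP that limits glucose uptake, rose in Cnp-Cre Jab1fl/fl by edgeR. It had 21.7, 23.5, 13.1 and 11.03 CPM in WT, 91.6, 44.8, 49.9 and 59.7 CPM in Cnp-Cre Jab1fl/fl, and 31.5, 26.7, 94.0 and 56.9 CPM in double mutants. The log2 fold change was 1.83 ± 0.37 (SE; edgeR adjusted p = 0.0137) in Cnp-Cre Jab1fl/fl and 1.58 in double mutants (edgeR adjusted p = 0.197), and the double mutants did not overlap WT. The 4 samples with the highest Txnip were again those with the 4 highest endothelial sums, whose part was not tested. Ppargc1a, a coactivator of mitochondrial genes, had -1.19 (edgeR adjusted p = 0.0892) and -1.07 (edgeR adjusted p = 0.301) against WT, of which DESeq2 called the first. Txnip overlaps the antisense gene Gm15441 and Hk3 overlaps Unc5a on the other strand.

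For 5 of the 10 genes, the genes closest in pattern over the 12 samples were named by the root mean square (RMS) difference of mean-centred log2(CPM + 1), which is a description. Closest to Hk2 were Dock2 (0.383), Ltc4s (0.560) and Il10ra (0.567), which are known from blood and immune cells, where the RMS of Hk2 around its own mean was 1.98. Mean CPM of Dock2 was 0.701 in WT, 26.5 in Cnp-Cre Jab1fl/fl and 12.7 in double mutants. The closest member to Hk2 was Mlxipl, at 1.43.

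Closest to Mlxipl were Gm15736 (0.503), Comp (0.534), the cartilage oligomeric matrix protein, and Gm46224 (0.562), with an RMS of 1.46 for Mlxipl itself. Mean CPM of Comp was 0.0756 in WT, 12.9 in Cnp-Cre Jab1fl/fl and 0.129 in double mutants, and Gm15736, which overlaps Cmklr1 on the other strand, had 0, 7.44 and 0.344 CPM. These genes were near 0 in both other genotypes, whereas Mlxipl had at least 3.92 CPM in every sample. The closest member to Mlxipl was Ldha, at 1.36. Closest to Slc16a1 (own RMS 0.514) were Minpp1 (0.293), Dym (0.313) and Golph3 (0.325). For Slc16a3 (own RMS 0.885) they were Acox3 (0.298), Pcdhb17 (0.410) and Gm26518 (0.443), and for Pdk4 (own RMS 0.748) they were Ivd (0.344), Zhx2 (0.349) and Gria1 (0.356).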

How the data were processed

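Oligodendrocytes sorted from 12 pools of mouse brains were profiled by RNA-Seq after SMART-Seq v4 amplification. The authors used Trimmomatic 0.32 on the paired reads, STAR 2.5.3a for alignment to GRCm38, and featureCounts with GENCODE basic gene models. Deposited were unnormalized counts, one value per symbol and sample. Whether the authors counted by strand or kept reads with several matches is not given in the sources used here, so overlapping genes are named as such.

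The labels gave each sample's genotype and replicate number. Of 55376 symbols, 54402 (98.2%) matched 1 gene of GENCODE release M21, which gave positions and exonic lengths. Genotypes were compared pairwise by quasi-likelihood F tests in edgeR 4.0.16 (R 4.3.3) with TMM factors, each on its 8 samples. A gene was tested when 4 or more of the 12 samples reached 1 CPM, which left 17716, and p-values were adjusted over all of these by Benjamini-Hochberg, with a threshold of 0.05. SE values are the log2 fold change divided by the square root of F. CPM values used TMM factors of all 12 samples, and TPM was computed from the counts. Log2 ratios used CPM with 1 added and two-sided exact permutation tests over 70 relabelings, adjusted over 9. Alternatives were DESeq2 1.42.0, DESeq2 size factors in edgeR, no filter, all 12 samples, all 12 samples with a replicate block, and each replicate left out. The edgeR fits were tested on simulated counts in which 200 genes changed by 3 log2 units. They recovered 64% of these for Cnp-Cre Jab1fl/fl against WT, 52% for double mutants against WT and 49% between the mutants. Of the calls made, 5.9%, 9.6% and 3% were false, in the same order. A gene not called can therefore still have changed. In every comparison the 10 genes were named, and each pathway list named up to 5 called genes and up to 2 others with the smallest unadjusted p under 0.05, some of which are not reported here. The 10 genes and all lists were chosen with earlier results of these data known.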

Additional observations from a re-analysis of the deposited data

Results flagged for a closer look

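Hk1 in WT was flagged because replicate 3 lay far from the other samples of its group. Its log2(CPM + 1) was 7.23, at 149 CPM, against 49.2, 50.4 and 54.2 CPM in the others, and the gap to the nearest of them took up 0.914 of the range of the group. Groups of 4 were examined in 39 tests, of which 1 was past the critical value, and chance flags about 1 group in 20. WT replicate 3 also had the highest astrocyte sum of its group, 10781 CPM, whose part was not tested.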

How the results depend on the processing

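Against WT, Hk2 in Cnp-Cre Jab1fl/fl stayed past the threshold under all 13 alternatives (log2 4.40 to 5.94), and Mlxipl under all but the replicate block. DESeq2 called 4 of 70 pathway genes as higher and 8 as lower in Cnp-Cre Jab1fl/fl (edgeR 2 and 3), where it called 1687 and 1002 of all 17716 genes. Without the filter 1 was lower. In double mutants against WT, DESeq2 called 1 member (Hk2) and 3 pathway genes as higher, and the fit of all 12 samples 1 (Hk3). Of all 17716 genes, these fits called 663 and 157 as higher. Against Cnp-Cre Jab1fl/fl, DESeq2 called 1 member as lower (Mlxipl). Slc16a1 in double mutants against WT turned to 0.022 with DESeq2 and to 0.022 with its size factors. The causes of these changes were not tested.

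Replicate numbers are shared between genotypes, but the deviations of same-numbered samples correlated by -0.188 to 0.083 and no sample correlated best with its own number, so they were not taken as pairs. With the replicate block, 1 member (Hk2) was higher in Cnp-Cre Jab1fl/fl, Mlxipl had 3.34 (edgeR adjusted p = 0.0561), and 0 pathway genes were higher and 0 lower. In that fit Slc16a3 turned to 0.37 and Pkm to 0.036 (Cnp-Cre Jab1fl/fl against WT), and Ldha to -0.072 (double mutants against Cnp-Cre Jab1fl/fl). Over all genes, DESeq2 called 1687 higher and 1002 lower in Cnp-Cre Jab1fl/fl, the fit of all 12 samples 644 and 297, no filter 581 and 322, and the block 76 and 3, against 919 and 435.

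Leaving out each replicate in turn gave, in Cnp-Cre Jab1fl/fl against WT, 2 to 3 members higher, 2 to 3 pathway genes higher and 0 to 6 lower, and in double mutants against WT 0 to 1 pathway genes higher. Log2 fold changes that crossed 0 were, in Cnp-Cre Jab1fl/fl against WT, -0.71 to 0.35 for Slc16a3 and -0.25 to 0.10 for Pkm. In double mutants against WT they were -0.43 to 0.16 for Slc16a1, -1.47 to 0.10 for Slc16a3 and -0.033 to 0.47 for Ldhb. In double mutants against Cnp-Cre Jab1fl/fl they were -0.16 to 0.50 for Slc16a1, -1.35 to 0.35 for Slc16a3, -0.33 to 0.36 for Slc2a1, -0.45 to 0.33 for Ldha, -0.14 to 0.35 for Ldhb and -0.078 to 0.54 for Pdk4. The log2 ratio of Slc16a3 to Slc16a1 crossed 0 between Cnp-Cre Jab1fl/fl and WT (-0.54 to 0.67) and between the mutants (-1.10 to 0.12).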
